A study of Mus musculus with 8 samples.

Results

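Mouse salivary gland tumours were profiled after 14 days of rapamycin, an inhibitor of the mTOR kinase. In cells mTOR acts downstream of AKT, a protein kinase of the PI3K pathway. The tissue was set against normal submandibular gland, to see how near the treated tumour stood to that gland and which transcripts lay outside it. The comparison used 3 of the 8 arrays of the series, chosen by their labels: 2 of tumour treated for 14 days (replicates 1 and 2) and 1 of untreated normal submandibular gland. The other 5 arrays held 2 untreated normal parotid glands, 2 untreated tumours and 1 tumour treated for 3 days. The labels gave no dose, genotype, promoter, strain, age or sex, did not name the gland in which the tumours grew, and did not tie replicate arrays to individual mice. Each p-value therefore measured the spread between these arrays, which for day 14 may be technical. The 2 parotid arrays differed from each other in the sex-linked genes given below, as did the 2 untreated tumours.

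The submandibular gland of the mouse is a mixed gland with mucin-secreting acini and granular convoluted ducts. The granular ducts depend on androgen and store kallikreins, epidermal growth factor and renin, whereas the parotid gland is serous and secretes amylase and proline-rich proteins. Mucous cells that make the large gel mucin Muc19 characterise the sublingual gland, which lies against the submandibular gland, and fat and the muscles of the face and neck surround all 3 glands.

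Levels are given as the log2 of a gene's signal over the 75th percentile of its array, so a difference of 1 is 2-fold. A gene was well above background where the scanner software called at least 1 of its probes so, and where it was not, a fold is a lower bound. The 75th percentile signal was 177 and 236 at day 14 and 277 in the submandibular gland, and 43.2% to 58.4% of the spots were well above background across the 8 arrays. Day 14 replicate 1 lay on slide 1 with both untreated tumours and parotid replicate 1, and day 14 replicate 2 lay on slide 2 with the submandibular gland, parotid replicate 2 and the day 3 tumour. The number of arrays limited the precision throughout.

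The submandibular array carried the products of its label. All 15 tested granular duct genes were well above background there, with a mean level of 8.16 against 2.18 and 3.31 in the parotid glands, and the parotid acinar genes had a mean level of -0.14 against 7.73 and 7.98. Among submandibular acinar products, Smr3a and Smr2 were not well above background on that array. Xist, the RNA of the inactive X chromosome, was at 3.097 in the submandibular gland and the Y-linked gene Ddx3y was not well above background there. At day 14 Xist was at -2.10 and -2.40 and Ddx3y at 1.72 and 1.41. The parotid arrays were split in the same way, with Xist at 4.46 in replicate 1 and -5.17 in replicate 2 and Ddx3y at -6.04 and 1.11. So were the untreated tumours, with Xist at -5.45 in replicate 1 and 4.19 in replicate 2 and Ddx3y at 0.48 and -7.62. Both splits enter the pooled spread. The part of these differences in the results below was not tested, and with 1 submandibular array they cannot be told apart from the group.

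Over the 16367 genes tested, the levels of the 2 day 14 arrays correlated with the submandibular array at Pearson r of 0.896 and 0.900 (across genes, and genes do not count as replicates). The median absolute difference from the submandibular array was 0.63 for either day 14 array, and 4.82% and 4.64% of genes differed by over 8-fold. The distance between the normal glands themselves was slightly smaller for parotid replicate 1 and clearly smaller for replicate 2. The submandibular array correlated with these parotid arrays at 0.904 and 0.924. The median absolute differences were 0.62 and 0.46, with 4.28% and 3.08% of genes over 8-fold apart. The 2 day 14 arrays correlated with each other at 0.986 and the 2 parotid arrays at 0.928. The day 14 arrays correlated with the parotid arrays at 0.898 to 0.908 and with the untreated tumours at 0.738 to 0.744. These values share arrays and are given as a description.

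Between day 14 and the submandibular gland, 1462 genes (8.93% of those tested) passed limma's test at a Benjamini-Hochberg adjusted p under 0.05. Of these, 925 (5.65%) were higher and 537 (3.28%) lower at day 14, and in each the 2 day 14 values lay on the same side of the submandibular value. The higher genes included 525 that were not well above background in the submandibular gland, and 481 of the 925 had clone-type names (52%) against 18.5% of all genes tested. The count was 1856 (11.3%, with 6.26% of all genes higher) for day 14 against parotid, 384 (2.35%, with 0.984% higher) for parotid against submandibular gland and 6390 (39%) for untreated tumour against parotid, the last of which shares only the pooled spread with the comparison described. Without replicate 1 of day 14, 3 genes passed limma's adjusted threshold and 2764 an unadjusted p under 0.05. Without replicate 2, 0 and 3044 did. Without either of the parotid arrays, which enter only the pooled spread, 4881 and 4893 genes passed. Each of those fits included all 1462. Without either untreated tumour array 566 genes passed. With slide as a fixed block 551 genes passed, 532 of them among the 1462.

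**Figure D1:**
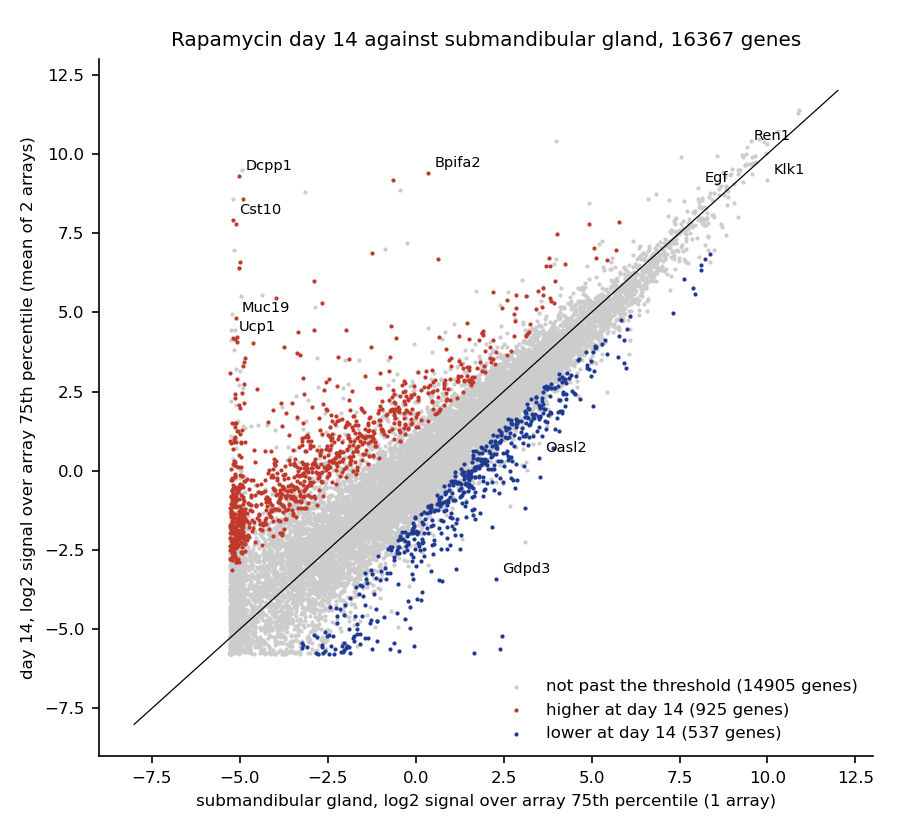
Levels of 16367 genes at day 14 (vertical axis, mean of 2 arrays) against the submandibular gland (horizontal axis, 1 array), both as log2 signal over the array's 75th percentile, with the line of equal level. The 925 genes higher at day 14 include many at the floor of the submandibular array, among them Dcpp1, Muc19 and Ucp1, whereas Klk1, Egf and Ren1 lie near the line at high levels.

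The parotid-type secretory genes were higher at day 14 than in the submandibular gland. Both day 14 arrays were above the submandibular array for all 11 tested genes of the parotid acinar list (39.3% of all genes tested), 6 of them passed the test as higher (5.65% of all genes), and the median difference was 6.64 (6.43 with genes at their bounds) against -0.08 over all genes. For 7 of the 11 both day 14 arrays lay between the submandibular array and both parotid arrays, a position not counted over all genes. The 6 that passed were Bpifa2, Prb1, Prh1, Prp2, Prpmp5 and Cst10. Without either untreated tumour array more of the 11 passed, although fewer genes did over all genes tested.

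The proline-rich protein genes, which encode abundant tannin-binding salivary proteins, were among those 7, and 4 of them lie in a cluster on chromosome 6. The 110 bases before the annotated start of each are shown because the members moved together. TATAAA, the core of the TATA box, is in capitals. The stretches are from RefSeq (GRCm38.p6), read along the gene's strand: chr6:132569732-132569841 on the plus strand for Prh1, chr6:132595801-132595910 on the plus strand for Prp2, chr6:132210522-132210631 on the minus strand for Prb1 and chr6:132314744-132314853 on the minus strand for Prpmp5.
Prh1: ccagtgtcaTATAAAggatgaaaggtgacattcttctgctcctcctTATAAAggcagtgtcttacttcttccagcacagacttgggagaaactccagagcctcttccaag
Prp2: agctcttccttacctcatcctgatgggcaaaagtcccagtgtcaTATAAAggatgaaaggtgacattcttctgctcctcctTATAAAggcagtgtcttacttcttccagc
Prb1: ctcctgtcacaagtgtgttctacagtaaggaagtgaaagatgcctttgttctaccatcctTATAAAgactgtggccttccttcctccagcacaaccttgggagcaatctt
Prpmp5: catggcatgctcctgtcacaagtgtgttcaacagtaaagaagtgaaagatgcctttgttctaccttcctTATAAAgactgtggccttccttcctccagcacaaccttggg

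Prh1 and Prp2 shared a run of 137 bases within the 250 bases before their starts, and Prb1 and Prpmp5 one of 45, whereas the longest run shared across those pairs was 11. Searched on both strands of those 250 bases, TATAAA was in 7 of the 11 parotid acinar promoters (63.6%) and in 14.3% of the 27025 genes with a promoter in the table. It was in 1 of 16 granular duct promoters, that of Ren1. How well the array probes tell these genes apart was not tested, because only bases before the starts were compared.

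Prp2 was at 4.02 and 4.37 at day 14, at -0.57 in the submandibular gland and at 8.85 and 8.62 in the parotid glands. It was 27.1-fold higher than in the submandibular gland (log2 difference 4.76, SE 0.28, limma adjusted p = 0.00444) and 4.54 lower on the log2 scale than in parotid (difference -4.54, adjusted p = 0.00124). Its neighbour Prh1 was at 3.08 and 2.89, at -1.43 in the submandibular gland and at 7.71 and 7.08 in parotid, a 21.3-fold rise over the submandibular gland (adjusted p = 0.00742). Both genes thus lay between the 2 normal glands without overlap. Prpmp5 was at 1.47 and 1.58, not well above background in the submandibular gland and at 7.01 and 5.59 in parotid, which made it at least 22.2-fold higher than in the submandibular gland (adjusted p = 0.0144). Prb1 was at 5.47 and 5.46, not well above background in the submandibular gland and at 8.41 and 8.53 in parotid, at least 342-fold higher (adjusted p = 0.0287). Against parotid Prpmp5 passed (difference -4.78, adjusted p = 0.0157) and Prb1 did not (difference -3.01, adjusted p = 0.212).

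Bpifa2, the parotid secretory protein, was at 9.22 and 9.54 at day 14, 0.36 in the submandibular gland and 9.61 and 10.88 in parotid. It was 521-fold higher than in the submandibular gland (difference 9.03, SE 0.71, adjusted p = 0.00762) and did not pass against parotid (difference -0.86, adjusted p = 0.37). Cst10, a cystatin-type protease inhibitor, was at 8.18 and 7.63 at day 14 and at 9.31 and 10.61 in parotid, and was not well above background in the submandibular gland, at least 1855-fold lower (adjusted p = 0.047). Its day 14 values were below both parotid values without passing (difference -2.05, adjusted p = 0.624).

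Amylase did not pass. Amy1, the salivary amylase gene, was at 10.49 and 10.36 at day 14, 3.995 in the submandibular gland and 9.74 and 10.87 in parotid. The day 14 arrays were above the submandibular array by 6.43 with an SE of 3.13 (adjusted p = 0.252), and the untreated tumours, whose spread enters that SE, were at -3.82 and 5.12. The secreted nuclease Dnase1 gave a like picture at 8.91 and 8.80 against -0.43 (adjusted p = 0.113), as did the chitinase Chia1 at 8.64 and 8.97 against a submandibular level not well above background (adjusted p = 0.0538). The carbonic anhydrase Car6, a product of both glands, was at 10.35 and 10.29 at day 14 and 9.99 in the submandibular gland. Lman1l, a lectin-like gene of the list, went against the list's name: it was at 6.54 and 6.50 at day 14, 3.92 in the submandibular gland and -2.95 and -5.07 in parotid.

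The granular duct products of the submandibular gland were all well above background at day 14. Of the 15 tested genes 0 passed limma's test and 1, Egf, had an unadjusted p under 0.05. With the day 14 and submandibular arrays alone 6 were higher and 1 lower, against 3427 and 3136 of the 16367 genes tested. Without either parotid array some of the 15 also passed as higher, and calls as higher rose over all genes too. Their median difference was 0.48, the largest difference in either direction was 2.51-fold, and both day 14 arrays were above the submandibular array for 12 of 15, against 39.3% of all genes. Both day 14 arrays were also above both parotid arrays for all 15, a position not counted over all genes. Against parotid 12 passed, all higher (6.26% of all genes), with a median difference of 6.12 against -0.02 over all genes. The miss against the submandibular gland does not show equal levels, because the intervals were wide.

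Ren1, a renin gene, was at 10.15 and 10.32 at day 14, 9.43 in the submandibular gland and -3.87 and -0.01 in the parotid glands. The difference from the submandibular gland was 0.80 with a 95% interval of -2.47 to 4.07. Differences over the 2 Ren1 probes spanned -0.21 to 0.80. Egf was at 9.14 and 8.72 against 8.03 in the submandibular gland and 2.77 and 3.08 in parotid (difference 0.89, interval 0.14 to 1.65, limma adjusted p = 0.132). Its 2 day 14 values were both above the submandibular value.

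Klk1, the tissue kallikrein of all salivary glands, was at 9.19 and 9.15 at day 14, 10.00 in the submandibular gland and 8.06 and 8.86 in parotid. It was the one duct gene with both day 14 arrays below the submandibular array (difference -0.83, interval -4.42 to 2.77). The granular duct kallikreins of the Klk1b family are close copies of each other. Klk1b16, for example, was at 8.33 and 8.65 against 8.05 in the submandibular gland and 0.21 and 1.95 in parotid, and Klk1b21 at 8.13 and 7.87 against 8.05.

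The submandibular acinar products divided. Prol1, which encodes the submandibular mucin, was at 8.73 and 9.05 at day 14, 8.62 in the submandibular gland and 1.32 and 4.27 in parotid (difference from the submandibular gland 0.27, interval -2.68 to 3.21). Smgc, a secreted protein of submandibular acinar and terminal tubule cells, was at 7.18 and 6.88 against 7.22, and at -6.24 and -1.87 in parotid. Smr3a, a secreted peptide precursor, went against the list's name on these arrays. It was at 7.31 and 8.28 at day 14 and at 9.28 and 9.79 in parotid. On the submandibular array it was not well above background, at least 1719-fold lower (limma adjusted p = 0.0431). The 5 tested acinar genes had a median difference of 0.27, with 1 higher and 0 lower, and 0 of them had an unadjusted p under 0.05 in the lower direction. The sign of that median turned with the processing, to -0.08 under quantile normalization and -0.06 with the deposited values.

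Some transcripts of the sublingual mucous list were far higher at day 14. Of its 8 genes 4 passed, all higher (5.65% of all genes), and the median difference was 5.89 (4.80 with genes at their bounds). Of those 4, Dcpp1, Dcpp2 and Dcpp3 were also well above background in both parotid glands, so they did not set a sublingual type apart from a parotid one. Muc19 was at 4.82 on both day 14 arrays and was not well above background in the submandibular gland or in either parotid gland. It was at least 219-fold higher than in the submandibular gland (adjusted p = 0.00947), and its difference from parotid was 10.47 (adjusted p = 0.00254). Smgc, which lies in the same locus as Muc19 and shares exons with it, did not follow it.

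Dcpp1, Dcpp2 and Dcpp3, which encode demilune cell and parotid proteins, are close copies of each other. Dcpp1 was at 9.21 and 9.39 at day 14 and at 9.20 and 10.14 in parotid, and was not well above background in the submandibular gland. It was at least 4872-fold higher than in the submandibular gland (adjusted p = 0.00101), the largest difference among the named genes that passed. Dcpp2 was at 8.39 and 8.75, above both parotid arrays at 6.07 and 6.08 (difference from parotid 2.49, adjusted p = 0.0206). Dcpp3 was at 2.98 and 5.36, the widest gap between the day 14 arrays among these genes, against 5.999 and 3.954 in parotid. The remaining members did not pass and lay on both sides. The differences were 2.47 for Galnt12, 0.89 for Agr2 and -0.38 for Spdef. Creb3l1, a transcription factor of secretory cells, was at -0.48 and -0.22 against 1.80 (difference -2.16, interval -3.38 to -0.93, limma adjusted p = 0.0519). Without either parotid array calls in the list extended to the lower direction, and calls as lower also rose over all genes.

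**Figure D2:**
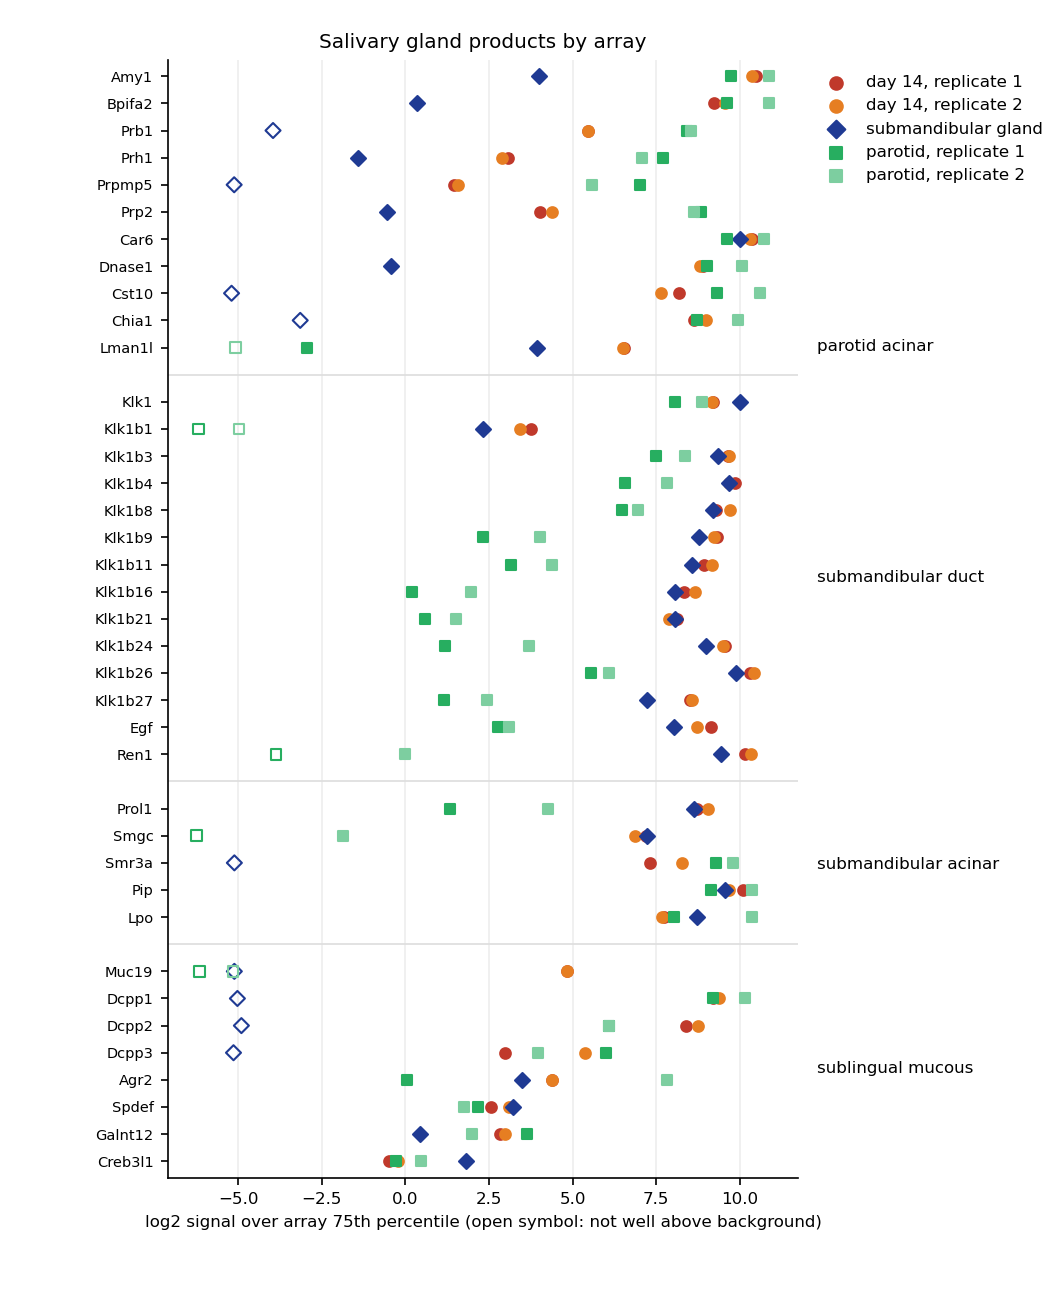
Levels of the tested genes of 4 salivary gland lists, without 1 duct gene that is not reported here, on each day 14, submandibular and parotid array, as log2 signal over the array's 75th percentile, 1 symbol an array, open where not well above background. The day 14 symbols lie with the submandibular gland for duct products such as Ren1 and Klk1b16, with the parotid arrays for Bpifa2 and Dcpp1, and apart from all 3 normal arrays for Muc19.

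Genes of fluid secretion and acinar identity lay below the submandibular array. Both day 14 arrays were below the submandibular array for 46.8% of all genes tested and for all 12 tested genes of that list, 3 of them passed as lower (3.28% of all genes), and the median difference was -1.13. Without either untreated tumour array, and with slide as a fixed block, 0 of the 12 passed limma's adjusted threshold and 5 had an unadjusted p under 0.05. Slc12a2, the basolateral sodium-potassium-chloride cotransporter, was at 4.08 and 4.42 against 5.78, a 2.88-fold fall (limma adjusted p = 0.0231), and at 5.37 and 5.15 in parotid. Xbp1, a transcription factor of secretory cells, was at 2.59 and 2.63 against 3.92, a 2.48-fold fall (adjusted p = 0.0373). The sodium pump subunit Atp1b1 fell by 1.09 on the log2 scale (adjusted p = 0.0453).

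Aqp5, the apical water channel, was at 6.94 and 6.98 at day 14, 7.43 in the submandibular gland and 6.73 and 7.34 in parotid (difference -0.46, interval -1.31 to 0.38). Bhlha15, also called Mist1, an acinar transcription factor, was at 6.534 and 6.4 against 6.604 by its brightest probe. Differences over its 2 probes spanned -1.17 to -0.14. The list of duct epithelium had 0 of 15 genes past the test, 4 of them with an unadjusted p under 0.05 and lower, and a median difference of -0.56. The basal and myoepithelial list had 0 of 10 past limma's test, 1 at an unadjusted p under 0.05, and a median difference of -0.47. Without either parotid array some genes of both lists passed as lower, and calls as lower also rose over all genes. With slide as a fixed block the basal and myoepithelial median turned to 0.07.

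Fat transcripts were higher at day 14. Both day 14 arrays were above the submandibular array for all 17 tested white fat genes (39.3% of all genes), 6 of them passed as higher (5.65% of all genes), and the median difference was 2.31. The mean level of the list was 2.95 and 2.98 at day 14, 0.58 in the submandibular gland, and 1.06 and 2.91 in parotid replicates 1 and 2, so that parotid replicate 2 stood at the day 14 level. In bulk tissue, fewer cells of a type and less RNA per cell cannot be told apart. Leaving out a parotid array raised the count of passing genes in the white fat list and over all genes. Leaving out an untreated tumour array lowered both.

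Fabp4, the fatty acid binding protein of adipocytes, was at 7.61 and 7.34 at day 14, 4.03 in the submandibular gland and 4.62 and 6.35 in parotid, a 10.9-fold rise (limma adjusted p = 0.0366). Pparg, the nuclear receptor that drives fat cell formation, was at 1.14 and 1.12 against -1.56 (6.48-fold, adjusted p = 0.0458). The day 14 values of both genes lay above all 3 normal arrays. Gpd1, a glycerol phosphate dehydrogenase, was 6.73-fold higher by its brightest probe (adjusted p = 0.0214), while differences over its probes spanned -0.03 to 2.75. The glycerol channel Aqp7 was at -1.55 and -1.49 and was at least 2.70-fold higher (adjusted p = 0.0407).

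The fat cell hormones adiponectin and adipsin had wide errors. Adipoq was at 2.62 and 3.07 at day 14, -0.11 in the submandibular gland and 1.36 and 3.24 in parotid (difference 2.95, SE 1.497, adjusted p = 0.269). Cfd, which encodes adipsin, was at 5.85 and 5.73 against 3.62, and at 4.39 and 6.72 in parotid (adjusted p = 0.61). Neither gene separated day 14 from parotid replicate 2.

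Genes of brown fat, the heat-producing fat type, were higher than in every normal array. All 8 of the brown fat list had both day 14 values above all 3 normal arrays, and 7 passed against the submandibular gland, with a median difference of 3.70. Over all genes, 19.3% lay above all 3 normal arrays and 5.65% were called higher. Members such as Cpt1b are also muscle genes, muscle transcripts were higher on the same arrays, and their part in these levels was not tested. Without either untreated tumour array fewer of the 8 passed, as was so over all genes. Ucp1, the uncoupling protein that defines brown fat, was at 3.98 and 4.42 at day 14 and was not well above background in any of the 3 normal arrays. It was at least 143-fold higher than in the submandibular gland (adjusted p = 0.00444) and also passed against parotid (adjusted p = 0.000883).

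Cidea, a lipid droplet protein of brown fat and the lactating mammary gland, was at 6.95 and 6.78 against -1.24 in the submandibular gland and -2.34 and -0.03 in parotid, a 274-fold difference (adjusted p = 0.0108). In the untreated tumours Cidea was at 3.23 and 3.03, whereas Ucp1 was at -4.52 and -4.96. Cpt1b, the muscle-type and brown fat carnitine palmitoyltransferase, was at 2.13 and 2.14 and was at least 34.0-fold higher (adjusted p = 0.011). Elovl3, a fatty acid elongase, was at -1.64 and -0.68 and was at least 3.47-fold higher (adjusted p = 0.0283). Ppargc1a, the coactivator of mitochondrial genes, was the member that did not pass, at 3.06 and 2.69 against 2.34.

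Skeletal muscle transcripts were much higher at day 14 than in the submandibular gland. Both day 14 arrays were above the submandibular array for 26 of 28 tested muscle genes and above all 3 normal arrays for 24, against 39.3% and 19.3% of all genes. The median difference was 7.92 (7.37 with genes at their bounds), 10 genes passed the adjusted threshold as higher (5.65% of all genes) and 25 had an unadjusted p under 0.05 in the higher direction. As for white fat, the count of passing muscle genes rose without a parotid array and fell without an untreated tumour array, as it did over all genes. The mean level of the list was 3.86 and 3.92 at day 14, -3.65 in the submandibular gland and -3.991 and 1.013 in parotid replicates 1 and 2. The 2 parotid arrays thus differed by 4.99 in the median over the list, with replicate 2 higher for 27 of 28 genes. The part of muscle and fat RNA in the levels of the gland genes was not tested.

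Tnni2, the fast troponin I, was at 9.30 and 9.07 at day 14, -0.64 in the submandibular gland and 0.88 and 5.84 in parotid, a 910-fold difference (limma adjusted p = 0.0257). Mylpf, the fast myosin light chain, was at 5.91 and 6.06, was not well above background in the submandibular gland, and was at least 473-fold higher (adjusted p = 0.0182). Ttn, the giant sarcomere spring titin, was at 4.35 and 4.07 and was at least 143-fold higher by its brightest probe (adjusted p = 0.0317), and its 8 probes ranged from 2.70 to 9.28. The muscle-specific cytochrome oxidase subunit Cox6a2 was at 5.31 on both day 14 arrays against -2.67 (adjusted p = 0.0366).

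The classical muscle markers creatine kinase and skeletal actin did not pass the adjusted threshold. Ckm was at 5.08 and 5.25 at day 14, not well above background in the submandibular gland, and at -3.12 and 2.33 in parotid (difference 8.04, SE 1.92, adjusted p = 0.0538). Acta1 was at 7.13 and 6.87 against -0.87, and at -3.54 and 3.44 in parotid (difference 7.86, SE 2.43, adjusted p = 0.0998). Myh4, the fastest myosin heavy chain, was at 8.38 and 8.74 and was at least 2926-fold higher (adjusted p = 0.0798). None of the 3 overlapped the submandibular value. Among slow-fibre genes the troponins Tnni1 and Tnnc1 were not well above background at day 14 or in the submandibular gland, Tnnt1 was well above background in 1 of the 2 day 14 arrays, and the slow myosin Myh7 was at -1.72 and -1.63 between the parotid values of -1.90 and -0.46. Myh7 differed from the submandibular gland by 2.61 (interval 0.85 to 4.38, adjusted p = 0.0782).

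The letters CAGCTG, an E-box of the form bound by the myogenic factors, were searched on both strands of the 250 bases before each gene's start. They were in 10 of the 21 muscle genes with a promoter in the RefSeq table (47.6%) and in 14.7% of all genes. Shown in capitals are the matches in a fast light chain and a fast heavy chain and in the slow troponin Tnni1, whose promoter holds the same letters although its transcript was not well above background. The stretches are chr7:127211498-127211607 for Mylpf, chr11:67237702-67237811 for Myh4 and chr1:135799311-135799420 for Tnni1, all on the plus strand of GRCm38.p6.
Mylpf: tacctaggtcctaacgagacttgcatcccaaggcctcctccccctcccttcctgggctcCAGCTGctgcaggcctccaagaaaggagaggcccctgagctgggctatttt
Myh4: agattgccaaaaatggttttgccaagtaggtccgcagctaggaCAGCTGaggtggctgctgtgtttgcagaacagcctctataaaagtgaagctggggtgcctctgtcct
Tnni1: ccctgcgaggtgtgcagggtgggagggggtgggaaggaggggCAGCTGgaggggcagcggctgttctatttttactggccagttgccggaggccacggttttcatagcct

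The match lies 51 bases before the start of Mylpf, 67 before that of Myh4 and 68 before that of Tnni1. The core of the MEF2 site, searched as CTA and TAG with 4 bases between them, was in 1 of the 21 promoters and in 3.7% of all genes. The letters were thus also present before the slow gene Tnni1, and fast and slow genes were not compared as sets.

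**Figure D3:**
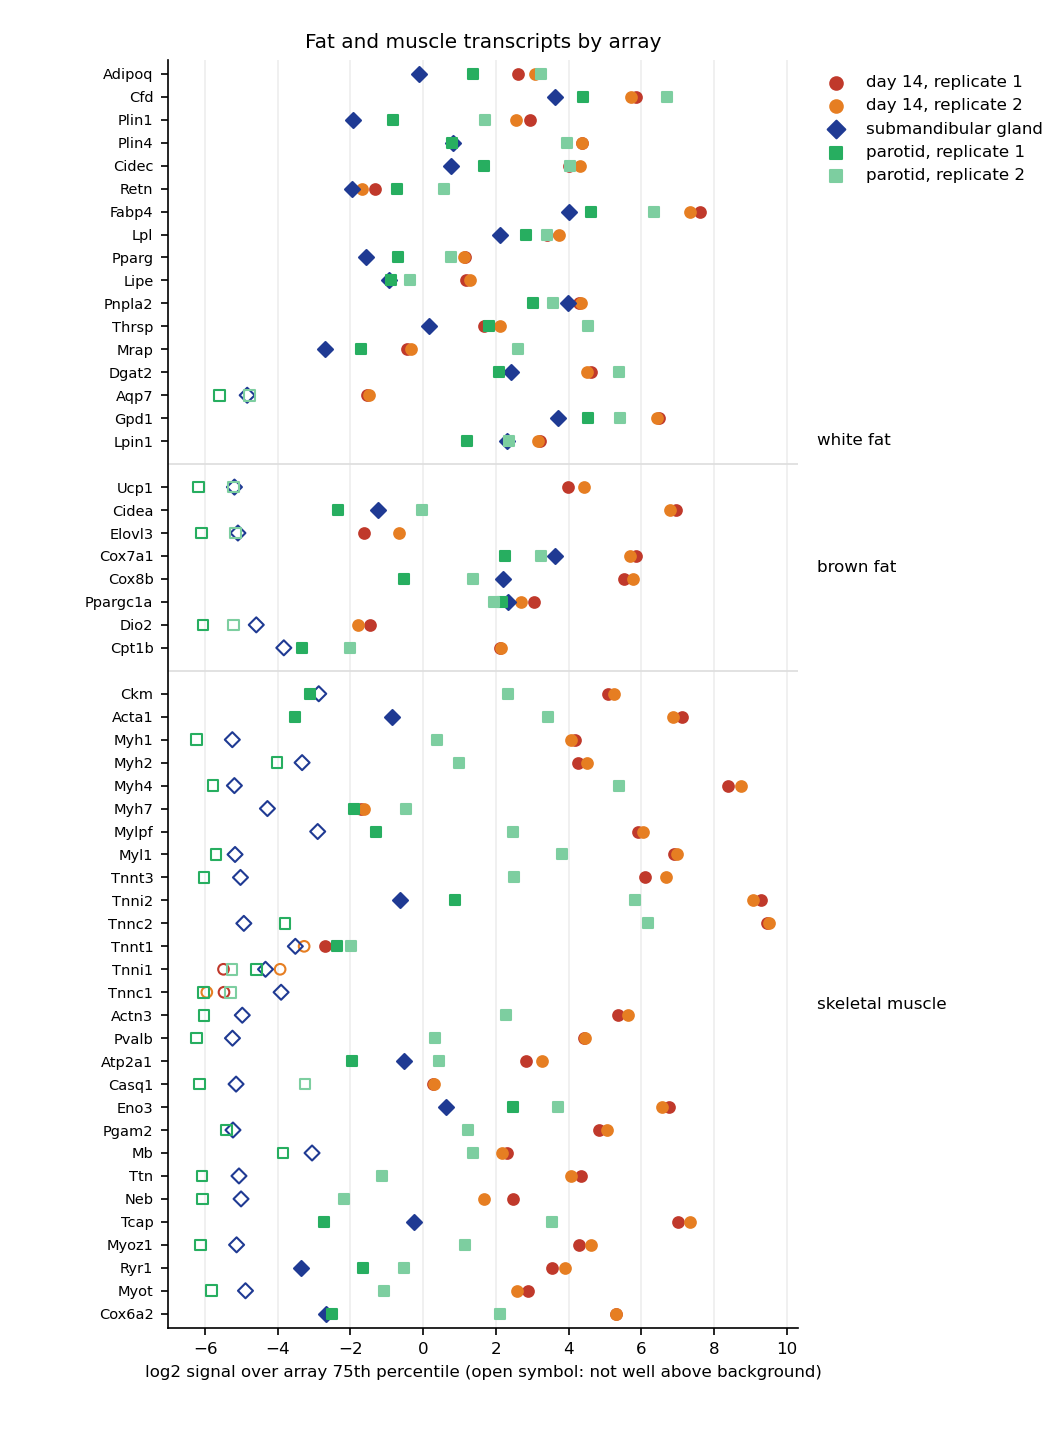
Levels of the tested white fat, brown fat and skeletal muscle genes on each day 14, submandibular and parotid array, as log2 signal over the array's 75th percentile, 1 symbol an array, open where not well above background. The day 14 symbols lie right of all normal arrays for the 8 brown fat genes and for 24 of the 28 muscle genes, and parotid replicate 2 lies right of parotid replicate 1 for 27 of the muscle genes.

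Outside both normal glands, 421 genes (2.57%) were above all 3 normal arrays and called higher against each gland, and 298 (1.82%) were below all 3 and called lower against each. By position alone, 3161 genes (19.3%) lay above and 3840 (23.5%) below the 3 normal arrays. The largest of the higher genes were Dcpp2, Mybpc2, A2ml1, Muc19, Ucp1 and Ttn. Mybpc2, the fast myosin binding protein C, was at 6.57 and 6.62 at day 14 and -1.88 and 2.98 in parotid and was at least 749-fold higher than in the submandibular gland (limma adjusted p = 0.0182). A2ml1, a protease inhibitor of the alpha-2-macroglobulin family, was at 6.35 and 6.47 and was not well above background in the submandibular gland, at least 658-fold lower (adjusted p = 0.0162).

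The genes with the largest falls were mostly ones measured in the submandibular gland and not well above background at day 14. Gdpd3, a lysophospholipase D, was at -4.20 and -2.64 at day 14, well above background in 1 of the 2 arrays, against 2.27 in the submandibular gland and 3.92 and 2.50 in parotid (difference -5.69, adjusted p = 0.0181). Zfp239, a zinc finger gene, was not well above background at day 14 and was at -0.53 in the submandibular gland and -0.56 and -0.67 in parotid, at least 7.69-fold lower at day 14 (adjusted p = 0.0114). Plpp4, a lipid phosphatase, and Klra8, a natural killer cell receptor, were at least 7.17-fold and 9.82-fold lower (adjusted p = 0.0119 and 0.0149). Xlr3c, an X-linked gene of a lymphocyte-regulated family, was at -3.08 and -3.14 against 1.16 (difference -4.27, adjusted p = 0.0103). It too was well above background in 1 of the 2 day 14 arrays. The immunoglobulin variable genes Ighv1-31 and Igkv6-14 were at least 8.05-fold and 9.52-fold lower.

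Other large falls passed against the submandibular gland and not against parotid. Between parotid and submandibular gland, 1 of the 5 genes passed, Olfr1467 (difference -4.14, limma adjusted p = 0.0466), and the others had an adjusted p of 0.0523 to 0.239. Gpr37, an orphan receptor, and Sult1c1, a sulfotransferase, were at least 12.2-fold and 11.4-fold lower than in the submandibular gland (adjusted p = 0.0188 and 0.0366), and did not pass against parotid (adjusted p = 0.266 and 0.675). The forkhead factor Foxf2, the peroxisomal oxidase Acox2 and the olfactory receptor gene Olfr1467 were at least 3.71-fold, 5.15-fold and 4.34-fold lower. All of these had day 14 values on 1 side of the submandibular value.

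Sterol synthesis was the metabolic list with the most calls. Of its 24 tested genes 8 passed, all lower, against 3.28% called lower over all genes, and the median difference was -0.92. Fdps, farnesyl diphosphate synthase, was at -0.79 and -0.44 at day 14 against 2.24 (difference -2.85, adjusted p = 0.0259), while differences over its probes spanned -2.85 to 2.72. Scd2, a fatty acid desaturase, was at 4.21 and 4.05 against 5.91 (3.43-fold lower, adjusted p = 0.0234). Cyp51, the lanosterol demethylase, was at least 2.04-fold lower (adjusted p = 0.04999). Fasn, fatty acid synthase, went the other way at 6.35 and 6.37 against 5.55 without passing (adjusted p = 0.24). Without either untreated tumour array 0 of the 24 passed limma's adjusted threshold, and 10 had an unadjusted p under 0.05.

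Of 13 tested interferon-induced genes 3 passed, all lower (3.28% of all genes), and 12 had both day 14 arrays below the submandibular array (46.8% of all genes), with a median difference of -1.59. Oasl2, an antiviral gene, was at 0.40 and 0.42 at day 14, 3.50 in the submandibular gland and 1.45 and 1.43 in parotid, an 8.52-fold fall (adjusted p = 0.0114). Irf7, the transcription factor of the response, was at -0.67 and -0.07 against 2.18 (adjusted p = 0.0367). The third was Usp18, which removes the interferon-induced modifier Isg15 from proteins (adjusted p = 0.0154).

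Of the macrophage list, Adgre1, a macrophage surface receptor, was 4.33-fold and C1qb, a complement component, 3.31-fold lower (limma adjusted p = 0.0248 and 0.0329). In all 2 of 13 passed, against 3.28% of all genes called lower. With slide as a fixed block, and without either untreated tumour array, 0 passed limma's adjusted threshold, and 3 and 4 were lower at an unadjusted p under 0.05. Other members lay higher without passing, among them the scavenger receptors Cd163 (difference 2.17, adjusted p = 0.0976) and Marco (difference 2.24, adjusted p = 0.42). The 11 tested B and plasma cell genes had a median difference of 1.81 with 0 past the test and 1 with an unadjusted p under 0.05, while the secretory plasma cell gene Jchain was at 4.92 and 5.20 against 5.32. S100b, a calcium-binding protein of Schwann cells and fat, was 5.52-fold higher (adjusted p = 0.0165). It was the 1 of 10 nerve genes that passed, against 5.65% of all genes called higher.

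Of 20 tested components of the PI3K, AKT and mTOR pathway, in which rapamycin acts, 1 passed as higher, against 5.65% of all genes. It was Pik3r1, the regulatory subunit of PI3K, at 3.16 and 3.14 against 0.29 (7.24-fold, adjusted p = 0.0162), which was at 2.03 and 2.61 in parotid. Differences over its 4 probes spanned -0.75 to 2.86, and with the mean of its probes it did not pass (difference 0.62, adjusted p = 0.394). Akt1 was at 4.12 and 4.38 at day 14 against 5.09 by its brightest probe (difference -0.85, adjusted p = 0.111). Differences over the 2 Akt1 probes spanned -0.85 to 0.63, and what sets the probes apart was not tested. Mtor was at -1.01 and -0.78 against -0.25 (adjusted p = 0.263).

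Proliferation genes had 0 of 25 past limma's test and 2 with an unadjusted p under 0.05, and a median difference of 0.44 that fell to 0.00 with genes at their bounds. Mki67, the nuclear antigen of cycling cells, was at 1.73 and 1.67 at day 14, 0.36 in the submandibular gland and 2.17 and 0.95 in parotid (adjusted p = 0.134), and was at 5.23 and 5.22 in the untreated tumours. Of 15 Wnt targets 2 passed, both higher (5.65% of all genes). Wif1, a secreted Wnt inhibitor, was at -0.91 and -0.81 and was at least 4.03-fold higher than in the submandibular gland (adjusted p = 0.0163), and Sp5, a transcription factor, was at -2.15 and -2.16 and at least 1.74-fold higher (adjusted p = 0.0273). Both were far above this in the untreated tumours, at 5.58 and 5.61 for Wif1 and 4.95 and 4.58 for Sp5. Axin2, the feedback inhibitor of the pathway, was not well above background at day 14 or in the submandibular gland.

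Among glycolysis and hypoxia genes 1 of 22 was called higher and 1 lower, near the shares of 5.65% and 3.28% over all genes. Slc16a3, the lactate exporter, was at 2.73 and 2.67 against -0.38 (8.49-fold, adjusted p = 0.0148), and Eno1, the common enolase, at -1.92 and -1.66 against 0.89 (difference -2.68, adjusted p = 0.0119). In muscle the enolase is Eno3, which was at 6.77 and 6.56 against 0.63 (adjusted p = 0.0137). The lists of endoplasmic reticulum folding, the ATF4 amino acid response and immediate early genes had 0 of 18, 0 of 16 and 0 of 12 past limma's test, with 1, 1 and 0 at an unadjusted p under 0.05 and medians of -0.02, 0.49 and 0.28.

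**Figure D4:**
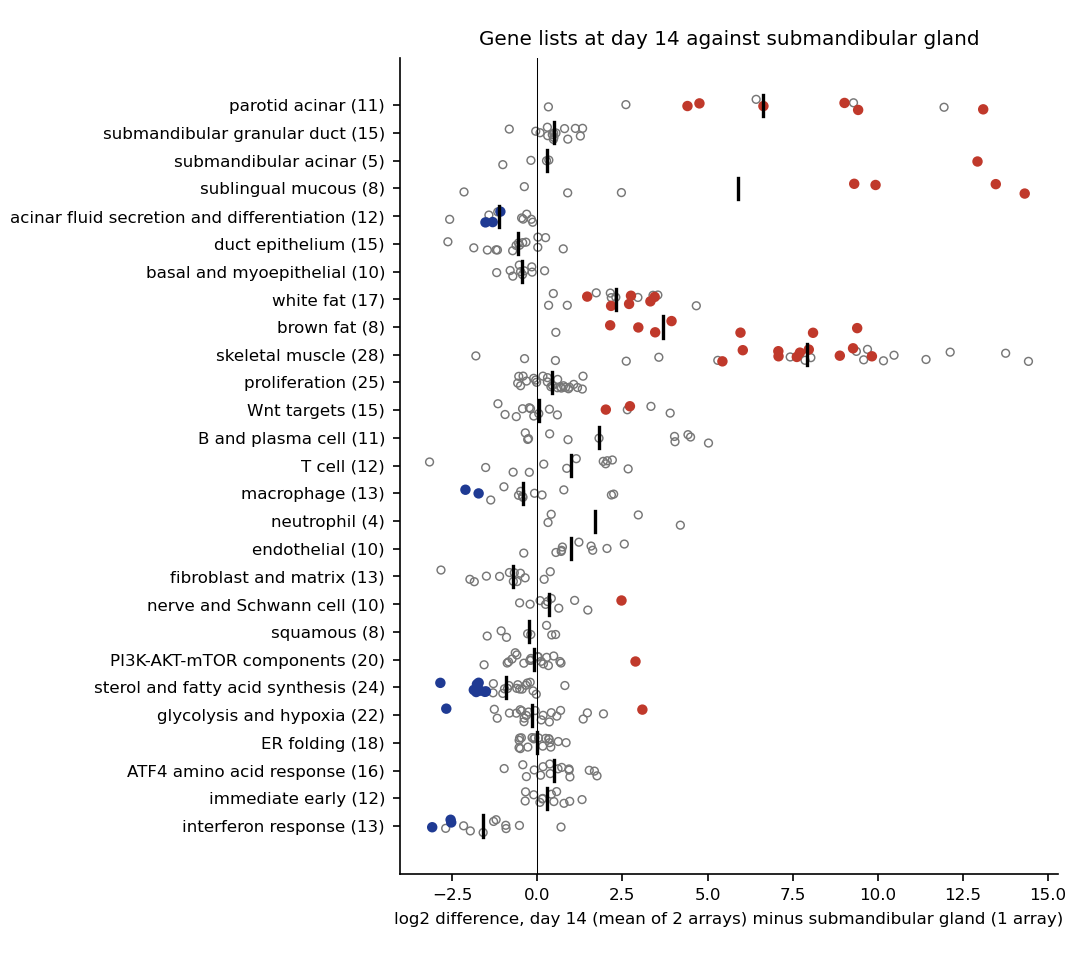
Log2 differences of day 14 (mean of 2 arrays) from the submandibular gland (1 array) for each tested gene of the gene lists, with the number tested in brackets, filled where the adjusted p was under 0.05 (red higher, blue lower) and open otherwise, and with the list's median as a bar. The bars of the parotid acinar, sublingual mucous, fat and muscle lists lie right of 0 and the granular duct genes cluster near 0.

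Whether the genes that separated day 14 from the submandibular gland were also tumour genes was looked at through untreated tumour against parotid, a comparison whose means use none of the same arrays but whose SE comes from the same pooled spread. Of the 925 genes higher at day 14, 19.8% were higher and 19.9% lower in untreated tumour than in parotid, against 18.7% and 20.3% of all genes tested. Of the 537 lower genes, 25.1% were higher and 30.0% lower in untreated tumour. The higher genes thus had shares close to those of all genes, and the lower genes had larger shares in both directions. Because the pooled spread is shared, these shares do not settle which of the genes were tumour genes.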

How the data were processed

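Per the file headers, the authors scanned 1-colour arrays with Feature Extraction 10.7.3.1, whose processed intensity is background-subtracted. The authors' deposited log2 table (column medians 5.52 to 5.57) served as an alternative only. Its centring was not given in the sources used here, and its columns had correlations of 0.971 to 0.980 with the arrays they came from.

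Outlier spots were dropped and spots of a probe averaged. Of 41174 probes 24286 were kept, namely those detected above background throughout some group, and the brightest probe stood for its gene. RefSeq accessions named 23366 probes, symbols 6739 and synonyms 2917, and 8152 kept their own name. Of 408 list symbols 403 were on the array and 379 were tested.

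Log2 processed intensity minus the array's 75th percentile was fitted in limma 3.58.1 (R 4.3.3) with 5 group means over all 8 arrays, an intensity trend, 3 residual degrees of freedom and 3.28 prior ones. The single submandibular array was assumed to vary like the replicated groups. P-values are two-sided, adjusted over all genes, threshold 0.05, and the script was tested on simulated data. A lower bound sets the brighter group's mean against, per array, the higher of the lowest signal well above background and the gene's own.

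Named were the 12 largest rises and falls past the threshold, 2 members of each list past it (4 for gland, fat and muscle lists), the 6 largest differences outside both glands in each direction, and fixed genes such as Amy1, Ren1 and Ucp1. Clone-type names were passed over, and further list members were named after their values were seen. A few genes that this rule names are not reported here. The comparison and the lists were chosen with earlier results of these data known. Alternatives covered background correction, normalization, the deposited values, filters, probe averaging, the trend, slide, a 2-fold minimum, the arrays of these groups alone, and leaving out each replicate.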

Additional observations from a re-analysis of the deposited data

How the results depend on the processing

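The parotid acinar, white fat and skeletal muscle medians stayed positive under every alternative run, and 0 of the called named genes changed sign. The count of calls moved most. Against 1462 genes (925 higher, 537 lower), normexp correction gave 813 (520 and 293), a filter on all 8 arrays 792 (386 higher), slide as a fixed block 551 (446 and 105) and the arrays of these groups alone 6563 (3427 and 3136). Quantile normalization gave 810 lower. Normexp moved the median of all genes by 0.12. Leaving out 1 replicate gave 0 to 4893 calls (0 to 2665 higher, 0 to 2230 lower), with 0 to 3 where a day 14 array was left out (2764 to 3044 at an unadjusted p under 0.05 in limma), 566 where an untreated tumour was and 4881 to 4893 where a parotid array was.

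Untreated tumour against parotid gave 4181 genes under normexp, 15343 with no filter on dim probes, and 3034 to 8630 without 1 replicate. Day 14 against parotid gave 1102 under normexp and 0 to 5890 without 1 replicate (2821 at an unadjusted p under 0.05 in limma without day 14 replicate 1). Parotid against submandibular gland gave 694 under quantile normalization, 224 with the filter on all 8 arrays, 118 with slide fixed, and 9 to 3386 without 1 replicate.

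The parotid acinar median was 6.38 under normexp, 7.61 under quantile normalization, 5.998 with the deposited values and 4.76 with the filter on all 8 arrays. The granular duct median was 0.15, 0.12 and 0.89 under the last 3 of these and 0.85 with slide fixed. The submandibular acinar median was 0.21 under normexp, -0.0768 under quantile normalization, -0.0632 with the deposited values, 0.039 with no filter, -1.02 with the filter on all 8 arrays (1 gene left), 0.83 with slide fixed, 0.36 with slide random, 0.12 on slide 2 alone and 0.11 to 0.27 without 1 replicate. The white fat median was 1.99 under normexp, 2.17 with no filter, with the filter on all 8 arrays and with the mean of a gene's probes, 2.95 with slide fixed and 2.44 with slide random. The muscle median was 6.22 under normexp, 7.88 under quantile normalization, 7.33 with the deposited values, 7.65 with the filter on all 8 arrays, 7.74 with the mean of probes, 9.28 with slide fixed, 8.09 with slide random and 7.91 to 7.96 without 1 replicate. Where fewer arrays were fitted, degrees of freedom were lost, and the cause of the other shifts was not tested. No paired analysis was possible because the submandibular gland is 1 array.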

Other observations

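Families looked at after their values were seen added groups that the lists did not hold. Of 10 tested Klra genes, the killer cell lectin-like receptors, 5 were lower at day 14 than in the submandibular gland and 0 higher (3.28% of all genes tested were called lower), with a median difference of -2.78. Klra7 was at -2.22 and -2.45 at day 14 against 0.47, and Klra15 at -2.43 and -2.93 against 0.23 (limma adjusted p = 0.0466 and 0.0236). Of 23 immunoglobulin variable genes 11 were lower, with a median of -2.56, while the 11 tested genes of the B and plasma cell list had a median of 1.81, 0 past limma's test and 1 at an unadjusted p under 0.05. Of 23 H2 histocompatibility genes 7 were lower, with a median of -0.79. Members of these families are close copies of each other, so single genes among them are uncertain.

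Of 39 proteasome subunit genes 7 were lower and 0 higher, against 3.28% of all genes called lower, with a median difference of -0.90. The 82 cytosolic ribosomal protein genes had 2 lower, near that share, and a median of -0.05. Of the 6 tested BPI-fold genes, a family of secreted lipid-binding proteins, 3 were higher (5.65% of all genes). Bpifb9a was at 3.43 and 3.46 at day 14 and at 7.40 and 8.10 in the untreated tumours, and was not well above background in any of the 3 normal arrays (at least 84.1-fold higher than in the submandibular gland, limma adjusted p = 0.00444). Bpifb5 was at 3.21 and 2.98, at 8.15 and 8.23 in the untreated tumours, and not well above background in the submandibular gland (at least 66.2-fold, adjusted p = 0.00512).

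Some genes were well above background at day 14 and not on the submandibular array. Cldn22, a claudin of tight junctions, was at 2.27 and 2.65 at day 14 and 6.67 and 7.08 in parotid, and was not well above background in the submandibular gland (at least 42.6-fold, limma adjusted p = 0.00997). The casein gene Csn3 was at 2.05 and 1.57 at day 14 and 4.69 and 4.21 in parotid (at least 27.1-fold, adjusted p = 0.0197). The pancreatic lipase relative Pnliprp1 was at 1.35 and 1.65 at day 14 and not well above background in any normal array (at least 21.8-fold, adjusted p = 0.00992).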
